A study of Homo sapiens with 6 samples.

Results

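The genes described here are 10 genes of the unfolded protein response of the endoplasmic reticulum (ER): XBP1, HSPA5, DNAJB9, SDF2L1, HSP90B1, CALR, CANX, PDIA4, PDIA6 and HERPUD1. They were taken by name, as targets of the stress sensors ATF6 and IRE1 and as chaperones of the ER, from a table of 61806 genes, and each name matched 1 row. RNA-seq was made from 6 libraries of 293T cells, a widely used human cell line derived from embryonic kidney and chosen for its ease of transfection. Cells of 3 libraries were transfected by lipid with a plasmid labelled GFP, which carries the green fluorescent protein, and cells of the other 3 with a plasmid labelled GFP-812. No further genotype or treatment is labelled, both groups went through the same transfection, and neither the meaning of the number in that name nor the share of cells that took up a plasmid is given. The series title concerns truncated mutants of NEK1, and the comparison used here asks whether the ER stress genes differed between GFP-812 and GFP cells.

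The ER folds secreted and membrane proteins. When unfolded proteins pile up in it, the sensors IRE1, ATF6 and PERK signal to the nucleus: IRE1 splices the messenger RNA of XBP1 into the form that encodes an active transcription factor, ATF6 is cut into one, and PERK slows translation and favours that of ATF4. XBP1 and ATF6 then raise the messenger RNAs of chaperones, disulfide isomerases and degradation factors, and BiP, the product of HSPA5, is the usual marker of the response.

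Both factors are known to act through the ER stress response element, CCAAT followed after 9 bases by CCACG, and its type II form, ATTGG then any base then CCACG. In RefSeq promoter windows (build GRCh38.p14, 250 bases before to 50 after each transcript start), all 10 genes had at least 1 window. Read on both strands, the exact element was found in 6 of the 10 (XBP1, HSPA5, HSP90B1, CALR, CANX and PDIA6), and in 25 of 27305 genes with a window (0.0916%). The exact type II element was found in SDF2L1 and HERPUD1, and in 0.0696% of all genes. The 10 genes were taken as targets of ATF6 and IRE1. The shares with an element, here and below, are therefore a description and not a test. The sites upstream of the transcript start are shown because they are the sequence feature that 8 of the 10 genes share. Each is written 5′ to 3′ on the strand of its gene, with the fixed bases of the element in capitals, and an element on the opposite strand reads as CGTGG before ATTGG or, for type II, before CCAAT.
HSPA5, chr9:125241376-125241424, minus strand: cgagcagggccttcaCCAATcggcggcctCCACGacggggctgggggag
XBP1, chr22:28800603-28800621, minus strand: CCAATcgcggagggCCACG
HSP90B1, chr12:103930216-103930234, plus strand: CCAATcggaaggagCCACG
HSP90B1, chr12:103930321-103930339, plus strand: CGTGGtgcggcgcgATTGG
CALR, chr19:12938369-12938417, plus strand: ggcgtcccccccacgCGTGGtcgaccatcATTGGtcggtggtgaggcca
CANX, chr5:179698778-179698796, plus strand: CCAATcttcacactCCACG
PDIA6, chr2:10812853-10812871, minus strand: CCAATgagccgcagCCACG
SDF2L1, chr22:21642099-21642139, plus strand: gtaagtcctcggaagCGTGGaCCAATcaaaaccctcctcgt
HERPUD1, chr16:56932025-56932035, plus strand: ATTGGgCCACG

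The element of XBP1 lay closest to its start, 52 to 34 bases before it, and that of HSPA5 66 to 48 bases before it. The farthest was that of CALR, 225 to 207 bases before its start. HSP90B1 was the only one of the 10 with a pair of exact elements, in opposite orientation. The sites of HSP90B1 and CANX, though upstream of a RefSeq start, lie in exons of GENCODE release 29, and another RefSeq start of CANX falls within its site. With 1 mismatch allowed in the 10 fixed bases, HERPUD1 and SDF2L1 also held the first form, 8 of the 10 genes in all, against 1.89% of all genes; in SDF2L1 that match overlaps the type II element. In PDIA4 and DNAJB9 these letters were not in the windows used, and the core TGACGTG, which XBP1 and ATF6 also bind, was in 0 of the 10 and in 2.4% of all genes.

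**Figure D1:**
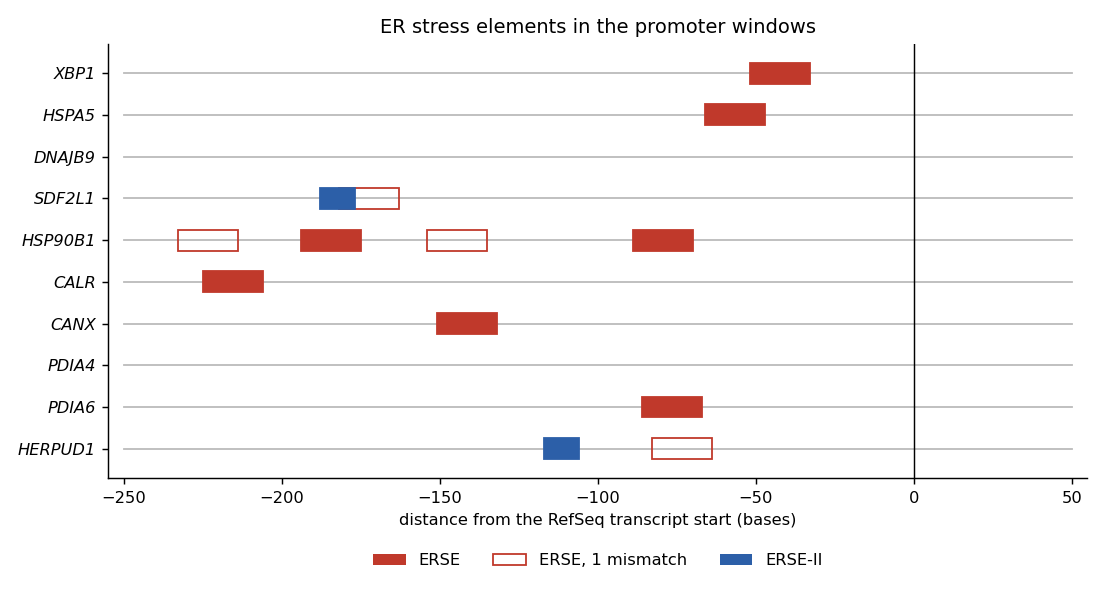
Position of ER stress elements in the promoter window of each gene, in bases from a RefSeq transcript start (vertical line). Filled red boxes are exact elements, open red boxes have 1 mismatch and blue boxes are exact type II elements; 8 of the 10 genes have a filled box.

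NEK1, the gene of the series title, was checked first. It stood at 562.73, 518.33 and 493.72 FPKM in the GFP-812 libraries and at 3.82, 3.99 and 3.91 FPKM in the GFP libraries, which separates the groups as labelled. FPKM is a count scaled by the exonic size of the gene and by the total of the library. Library totals ran from 14255148 to 17613814 counts. Replicates of a group differed by more than sampling noise, with a chi-square per degree of freedom of 2.13 to 2.34 among GFP-812 libraries and 3.14 to 4.03 among GFP libraries, the largest between GFP replicates 2 and 3. No source says that the replicates were separate cultures, so the spread behind each p-value is that of these libraries and may be technical. Mitochondrially encoded genes took 3.85% to 4.03% of counts in GFP-812 and 3.92% to 4.03% in GFP libraries. Of the epithelial markers, KRT18 and KRT8 were above 8 FPKM in each library, while CDH1 and KRT19 stayed below 1. Summed over a list, 6 epithelial markers reached 27.04 to 29.87 FPKM in GFP-812 and 25.94 to 26.57 in GFP. Sums stayed within 1.92 to 2.41 and 1.76 to 2.18 FPKM for 4 fibroblast markers (COL1A2 at most 0.01), 1.55 to 1.82 and 0.65 to 1.67 for 5 leukocyte markers (PTPRC at 0 in each library), 0.46 to 0.53 and 0.3 to 0.36 for 4 endothelial markers and 0.12 to 0.25 and 0.2 to 0.31 for 3 hepatocyte markers; the part of these markers in the results was not tested.

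None of the 10 ER stress genes passed the test in either direction. All 10 passed the filter on low counts, and edgeR's quasi-likelihood test, with p-values adjusted over all 16834 genes tested, called 0 of 10 (adjusted p from 0.129 to 0.966). Of all genes tested, 3.84% were called, 1.18% higher and 2.67% lower in GFP-812 cells. An unadjusted p under 0.05 was reached by 4 of the 10 in edgeR, against 16.1% of all genes. It was reached by 5 in DESeq2, by 5 in limma-voom and by 3 in limma on log2(FPKM + 1). The share of all genes is not given for these other tools, so their counts have no background here. They too called 0, though DESeq2 gave an adjusted p for only 9 of the 10 and none for SDF2L1. The fitted log2 fold changes ran from -0.12 to 0.17, with 8 above 0 and 2 below, and their median was 0.05, beside 0.007 over all genes tested. Of all genes tested 51.8% were above 0. Among those with a mean of at least 5 FPKM the share was 47.6% and the median -0.007. The 95% intervals are each for a single gene and rest on the spread of these libraries, which may be technical. For the 8 genes above 15 FPKM they span 0.868-fold to 1.13-fold, and for the low genes DNAJB9 and SDF2L1 0.856-fold to 1.33-fold. In bulk RNA, fewer cells that express a gene and less of its RNA per cell cannot be told apart, and a larger change in a few of the cells would be diluted.

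**Figure D2:**
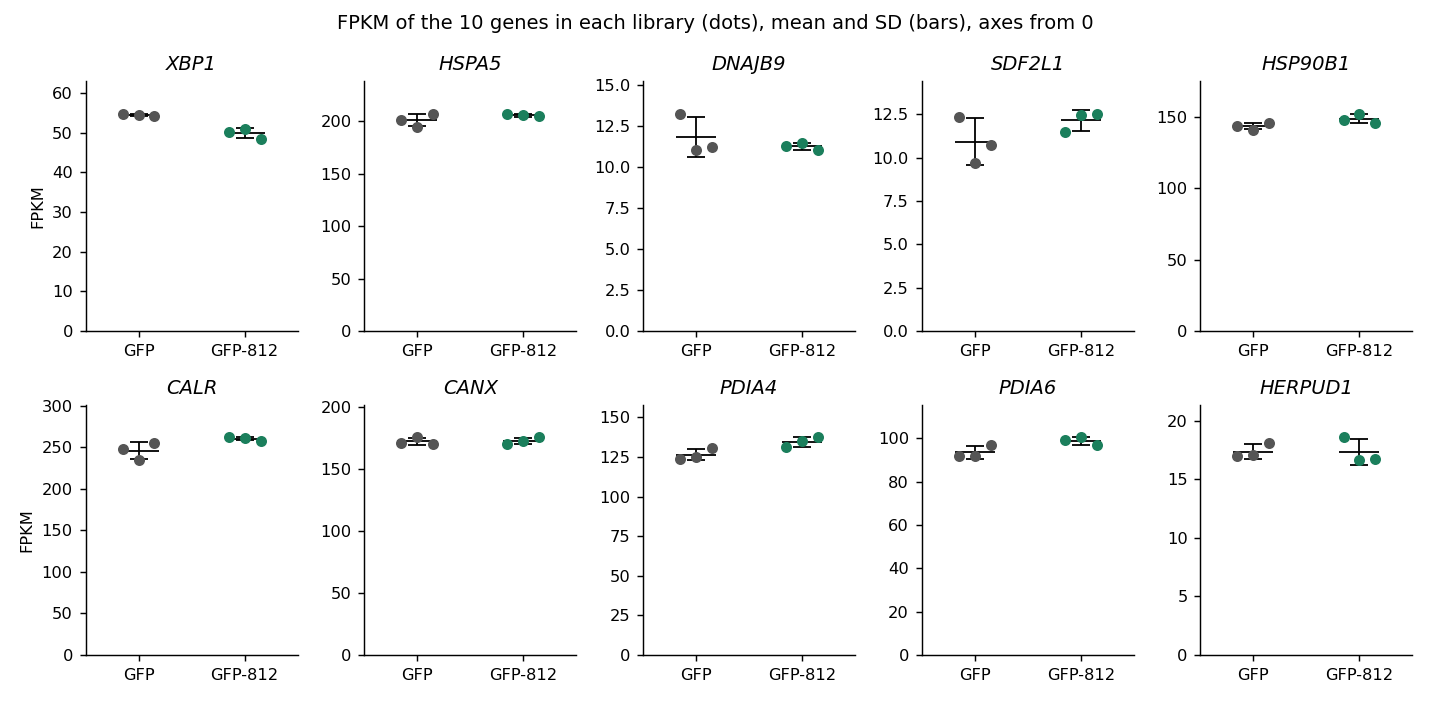
FPKM of the 10 genes in the 3 GFP and the 3 GFP-812 libraries (dots), with mean and SD (bars); each axis starts at 0 and has its own scale. The groups lie close together in each panel, and XBP1, CALR and PDIA4 are the genes whose groups do not overlap.

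The abundant chaperones were among the most highly expressed genes of these cells. By mean FPKM over the 6 libraries, CALR stood at 253.4, HSPA5 at 203.5, CANX at 172.7, HSP90B1 at 146.2, PDIA4 at 130.5, PDIA6 at 96.1 and XBP1 at 52.1, all above the 96th percentile of genes tested. HERPUD1 followed at 17.3, and SDF2L1 and DNAJB9 at 11.54 and 11.53. Each gene down to HERPUD1 was above the next in every pairing of libraries, while SDF2L1 and DNAJB9 overlapped. The order rests on the exonic size, which for HSP90B1 (13092 bases) and CANX (13764) far exceeds the longest transcript in GENCODE release 29 (3032 and 4260 bases). Scaled by the length of that transcript instead, and by library total as before, HSP90B1 led with 631.4, followed by CANX with 557.9, CALR with 373.2 and HSPA5 with 340. Together the 10 genes took 0.753% ± 0.00489 of all counts in GFP-812 and 0.735% ± 0.00883 in GFP libraries (SD, n = 3 each), and every GFP-812 library (0.75%, 0.759% and 0.751%) was above every GFP library (0.733%, 0.728% and 0.745%). The difference in this sum was not tested. Of single genes tested, 8.16% had all GFP-812 libraries above all GFP libraries.

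XBP1, the transcription factor that IRE1 activates by splicing (ENSG00000100219, hg38 chromosome 22, 28794555 to 28800597, minus strand), had the lowest fitted fold change of the 10. It stood at 50.11, 50.88 and 48.45 FPKM in the GFP-812 libraries and at 54.74, 54.45 and 54.14 FPKM in the GFP libraries. All 3 GFP-812 libraries were below all 3 GFP libraries, a pattern found in 12.4% of genes tested in this direction. The means were 49.8 ± 1.24 and 54.4 ± 0.3 FPKM (SD, n = 3 each). The fold fitted by edgeR was 0.923 (log2 fold change -0.12 with SE 0.0443), which did not pass (edgeR adjusted p = 0.142). Counts per gene hold the spliced and unspliced forms together, so the share of the active form was not analysed here.

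HSPA5 encodes BiP, the HSP70 chaperone of the ER lumen that also binds the stress sensors (ENSG00000044574, chromosome 9, 125234853 to 125241382, minus strand). Its levels were 207.21, 205.51 and 204.66 FPKM in GFP-812 and 201.33, 194.97 and 207.11 FPKM in GFP libraries. GFP replicate 3 lay among the GFP-812 libraries, so the groups overlapped. The means were 205.8 ± 1.3 and 201.1 ± 6.07 FPKM (SD, n = 3 each). The fold fitted by edgeR was 1.03 (log2 fold change 0.05 with SE 0.0341, edgeR adjusted p = 0.541), with a 95% interval of 0.984-fold to 1.08-fold.

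DNAJB9 and SDF2L1, which work with BiP, had the lowest mean FPKM and the largest SEs of the 10. DNAJB9 encodes ERdj4, a J-domain co-chaperone of BiP and a classic target of spliced XBP1 (ENSG00000128590, chromosome 7, 108569867 to 108574850, plus strand). It stood at 11.25, 11.45 and 11.01 FPKM in GFP-812 and at 13.23, 11.02 and 11.19 FPKM in GFP libraries. GFP replicate 1 alone stood apart, the other 5 lying within 11.01 to 11.45. Its log2 fold change was -0.06 (SE 0.0823, edgeR adjusted p = 0.78) and turned to 0.03 without that library. SDF2L1, a factor that works with the J-domain proteins of BiP (ENSG00000128228, chromosome 22, 21642302 to 21644299, plus strand), stood at 11.46, 12.46 and 12.54 FPKM in GFP-812 and 12.34, 9.68 and 10.76 FPKM in GFP libraries. These rest on 165 to 234 counts per library, the fewest of the 10. The groups overlapped, and its fold of 1.12 had the largest error (log2 fold change 0.17 with SE 0.121, edgeR adjusted p = 0.524).

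HSP90B1 encodes GRP94, the HSP90 of the ER (ENSG00000166598, chromosome 12, 103930107 to 103953931, plus strand). It stood at 148.09, 152.36 and 145.89 FPKM in GFP-812 and at 143.73, 141.25 and 146.02 FPKM in GFP libraries. The groups overlapped by GFP-812 replicate 3 and GFP replicate 3, which differed by 0.13 FPKM. The fold was 1.04 (log2 fold change 0.06 with SE 0.0331, edgeR adjusted p = 0.339). Its unadjusted p was 0.061 in edgeR, 0.025 in DESeq2 (adjusted 0.185) and 0.015 in limma-voom (adjusted 0.163).

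The lectin chaperones calreticulin and calnexin, which hold newly made glycoproteins in the ER, had different fitted values, and their difference was not tested. CALR (ENSG00000179218, chromosome 19, 12938578 to 12944489, plus strand) stood at 262.12, 261.93 and 258.01 FPKM in GFP-812 and at 248.07, 235.03 and 255.42 FPKM in GFP libraries. All GFP-812 libraries were above all GFP libraries, as in 8.16% of genes tested, though GFP replicate 3 came within 2.59 FPKM of the lowest of them. The means were 260.7 ± 2.32 and 246.2 ± 10.3 FPKM (SD, n = 3 each). The fold fitted by edgeR was 1.07 (log2 fold change 0.10 with SE 0.0366, edgeR adjusted p = 0.144). CANX, the membrane-bound lectin (ENSG00000127022, chromosome 5, 179678628 to 179731641, plus strand), stood at 170.39, 172.68 and 175.5 FPKM in GFP-812 and at 171.3, 175.58 and 170.6 FPKM in GFP libraries. The groups covered the same range, and the fold of 1.01 had the smallest error of the 10 (log2 fold change 0.02 with SE 0.0321, edgeR adjusted p = 0.866; 95% interval 0.967-fold to 1.06-fold).

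PDIA4 and PDIA6 are isomerases that form and rearrange disulfide bonds. With CALR, they were the genes of the 10 that reached an unadjusted p under 0.05 in edgeR with a fitted change above 0. PDIA4 (ENSG00000155660, chromosome 7, 149003062 to 149028662, minus strand) stood at 131.05, 135.19 and 137.37 FPKM in GFP-812 and at 123.94, 125.17 and 130.41 FPKM in GFP libraries. The groups did not overlap, and the highest GFP library was again replicate 3. Its fold was 1.07 (log2 fold change 0.10 with SE 0.0378), with the smallest p of the 10 (edgeR adjusted p = 0.129). PDIA6 (ENSG00000143870, chromosome 2, 10783391 to 10837977, minus strand) stood at 98.97, 100.41 and 96.68 FPKM in GFP-812 and at 91.61, 92.03 and 96.83 FPKM in GFP libraries. GFP replicate 3 overlapped the GFP-812 libraries, and the fold was 1.06 (log2 fold change 0.09 with SE 0.0384, edgeR adjusted p = 0.201).

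HERPUD1, a membrane protein of the ER that helps to hand misfolded proteins to the proteasome (ENSG00000051108, chromosome 16, 56932142 to 56944864, plus strand), stood at 18.58, 16.68 and 16.7 FPKM in GFP-812 and at 16.95, 17.08 and 18.07 FPKM in GFP libraries. The groups overlapped fully, at 1.01-fold (log2 fold change 0.01 with SE 0.054, edgeR adjusted p = 0.966; 95% interval 0.933-fold to 1.08-fold), and the sign of its value changed with the processing.

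**Figure D3:**
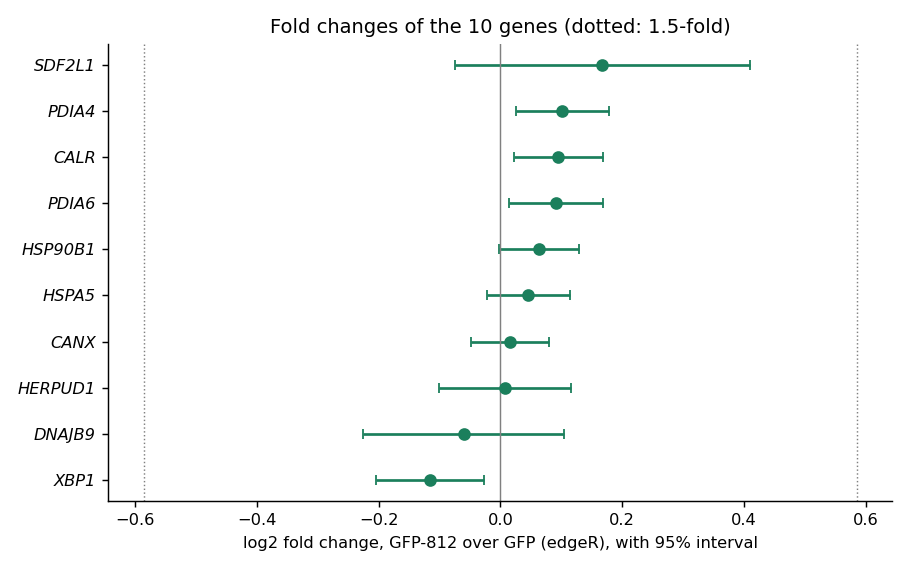
Log2 fold change of each gene, GFP-812 over GFP, from edgeR (dots) with its 95% interval (bars); dotted lines mark a 1.5-fold change. No interval reaches those lines, from 0.856-fold at the lower end (DNAJB9) to 1.33-fold at the upper (SDF2L1).

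Groups of 3 of the 10 genes did not overlap (2 higher and 1 lower), against 20.6% of genes tested. The call of 0 changed with 1 library: without GFP replicate 3, edgeR called CALR (log2 fold change 0.12, adjusted p = 0.00905), PDIA4 (0.12, 0.0165) and PDIA6 (0.12, 0.0309) higher, with 2.94% of all genes called higher in that fit. Without any of the other 5 libraries in turn, and with each other tool, filter or scaling tried, 0 of the 10 were called, SDF2L1 being without an adjusted p in DESeq2. Leaving out GFP replicate 2 instead lowered the fitted values, to 0.06 for CALR (edgeR adjusted p = 0.445), 0.09 for PDIA4 (0.228) and 0.08 for PDIA6 (0.363). A correction for GC content and length gave 0.06 (0.377), 0.07 (0.295) and 0.08 (0.269) for the same genes.

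The SD of the FPKM was larger among GFP libraries for 7 of the 10 genes and among GFP-812 libraries for 3. GFP replicate 2 was the lowest of the 6 libraries for 6 of the 10 genes on a log2 scale of counts divided by library total and TMM factor (log2 CPM), namely HSPA5, DNAJB9, SDF2L1, HSP90B1, CALR and PDIA6. Scaled by library total alone it was the lowest for 4 of them, without DNAJB9 and PDIA6. With TMM factors GFP replicate 3 lay near the mean of the 6 libraries, with a median deviation of -0.0015 over the 10 genes, against -0.0732 in GFP replicate 2. Across these 6 libraries HSPA5 and CALR followed each other most closely (Pearson r = 0.974), then HSP90B1 and PDIA6 (0.934). Of the 45 pairs 8 had r above 0.8, all of them among HSPA5, HSP90B1, CALR, PDIA4 and PDIA6, and 19 were below 0, led by XBP1 with PDIA4 (-0.889). These 6 points share their libraries and groups, and such values are common: of 7006 other genes at a mean of at least 5 FPKM, 664 had r above 0.8 with HSPA5. The closest to it were MYL12B, a myosin light chain (r = 0.996), SLIRP, an RNA-binding protein of mitochondria (0.994), ATP5MJ (0.991) and ATP5MG (0.987), both of the mitochondrial ATP synthase, and MRPL54, a mitochondrial ribosomal protein (0.99). CALR ranked 22 in that order, PDIA6 499 and XBP1 5400.

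**Figure D4:**
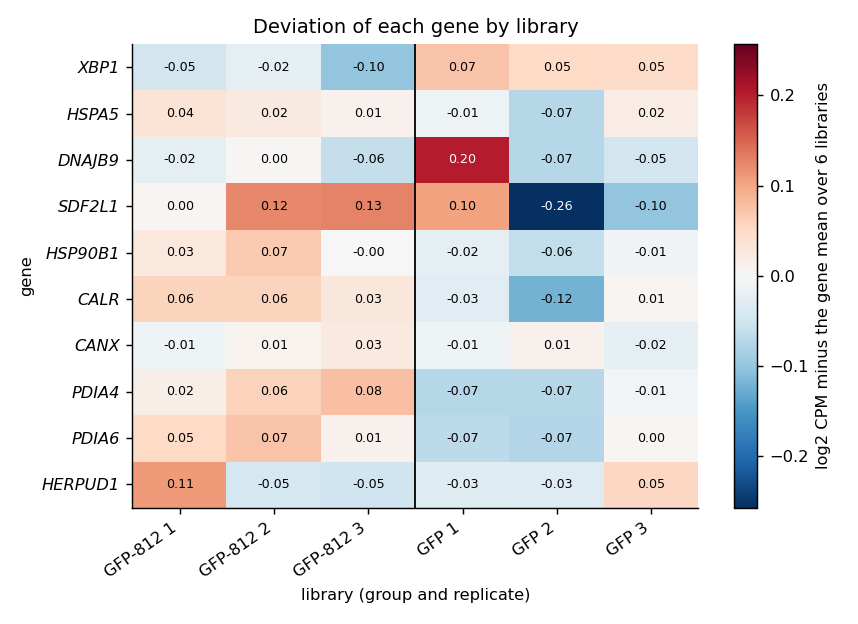
Scaled log2 CPM of each gene in each library minus the gene's mean over the 6 libraries (colour and printed value); GFP-812 libraries are left of the line, GFP libraries right. HSPA5, HSP90B1, CALR, PDIA4 and PDIA6 share low values in GFP replicate 2, while XBP1 is above its mean in all 3 GFP libraries.

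Outside the 10 genes, 108 further genes of the pathway on 8 lists were all tested. Of these 1 rose, 3 fell and 104 did not pass, near the 3.84% called among all genes tested, and their median log2 fold change was 0.002. The genes that fell were all on the list of the PERK branch, the translational arm of the response, on which 3 of 9 fell (2.67% of all genes tested fell), 0 rose and 6 did not pass, with a median log2 fold change of -0.13 beside 0.007 over all genes tested. The lists were chosen with earlier results of these data known, so the share on this list is a description and not a test. In edgeR without each library in turn, 2 to 4 of the 9 fell, DESeq2 and limma-voom each called 3 of them lower, and limma on log2(FPKM + 1) called 0, with an adjusted p of 0.1 to 0.131 for the 3 that edgeR called.

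PPP1R15A encodes GADD34, which ends the PERK signal by having eIF2alpha dephosphorylated. It stood at 17.17, 16.75 and 15.19 FPKM in GFP-812 and at 22.98, 18.92 and 24.09 FPKM in GFP libraries. The groups did not overlap, and it fell to 0.749-fold (log2 fold change -0.42 with SE 0.0679, edgeR adjusted p = 5.33e-05). ATF3, a transcription factor induced by many stresses, stood at 18.23, 18.78 and 18.58 against 21, 22.31 and 23.49 FPKM and fell to 0.84-fold (log2 fold change -0.25 with SE 0.0541, edgeR adjusted p = 0.00217). SESN2, a stress-induced regulator of mTORC1 that p53 also controls, stood at 13.41, 13.98 and 12.17 against 16.71, 15.26 and 15.88 FPKM and fell to 0.833-fold (log2 fold change -0.26 with SE 0.0656, edgeR adjusted p = 0.0105). Leaving out GFP-812 replicate 3 (adjusted p = 0.178) ended its call, as did leaving out GFP replicate 1 (0.113). All 3 genes also respond to signals other than PERK, and the cause of their fall was not tested. On the same list, ATF4 and DDIT3, which encodes CHOP, did not pass. ATF4 had a log2 fold change of 0.06 with SE 0.0372 (edgeR adjusted p = 0.407) at 193.8 ± 1.32 against 187.1 ± 5.99 FPKM (SD, n = 3 each). DDIT3 had one of 0.14 (SE 0.106, edgeR adjusted p = 0.545) at 14.4 ± 2.02 against 13.1 ± 1.49 FPKM. PERK acts on the translation of ATF4, which RNA counts do not measure.

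The 8 stress sensors and signalling genes held 0 calls (0 at an unadjusted p under 0.05), with a median log2 fold change of -0.01. EIF2AK3, which encodes PERK, had the smallest p (log2 fold change -0.11, edgeR adjusted p = 0.5), at 1.84, 1.59 and 1.51 against 2.01, 1.71 and 1.66 FPKM. Of 14 further ER chaperones and folding factors 0 passed (0 unadjusted), with a median of -0.03 and the smallest p in DNAJC1, a J-domain protein (log2 fold change 0.12, edgeR adjusted p = 0.386).

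On the list of 13 genes for disulfide bond formation 1 rose and 12 did not pass, with a median of 0.06. PRDX4, a peroxiredoxin of the ER, stood at 126.84, 124.26 and 125.12 FPKM in GFP-812 and at 112.96, 109.53 and 119.52 FPKM in GFP libraries, and rose 1.11-fold (log2 fold change 0.15 with SE 0.042, edgeR adjusted p = 0.0277). That call was lost without each of the libraries other than GFP replicate 3 (adjusted p from 0.0991 to 0.135), with limma on log2(FPKM + 1) (0.164) and with a correction for GC content and length (log2 fold change 0.10, adjusted p = 0.127).

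The remaining lists held 0 calls each. The glycan and calnexin cycle genes (13 genes, 2 unadjusted) had a median of 0.03 and were led by DDOST, of the oligosaccharyltransferase (log2 fold change 0.12, edgeR adjusted p = 0.124; 0.15 and 0.0198 without GFP replicate 3). Genes of ER-associated degradation (19 genes, 3 unadjusted) had a median of -0.05, led by FAF2, which recruits the segregase VCP (-0.10, adjusted p = 0.219; -0.13 and 0.0421 without GFP replicate 3). Translocation into the ER (17 genes, 2 unadjusted) had a median of 0.01, led by SPCS1, of the signal peptidase (0.11, adjusted p = 0.22), and export from the ER (15 genes, 1 unadjusted) one of -0.01, led by SEC16A, which organises exit sites (-0.10, adjusted p = 0.254).

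**Figure D5:**
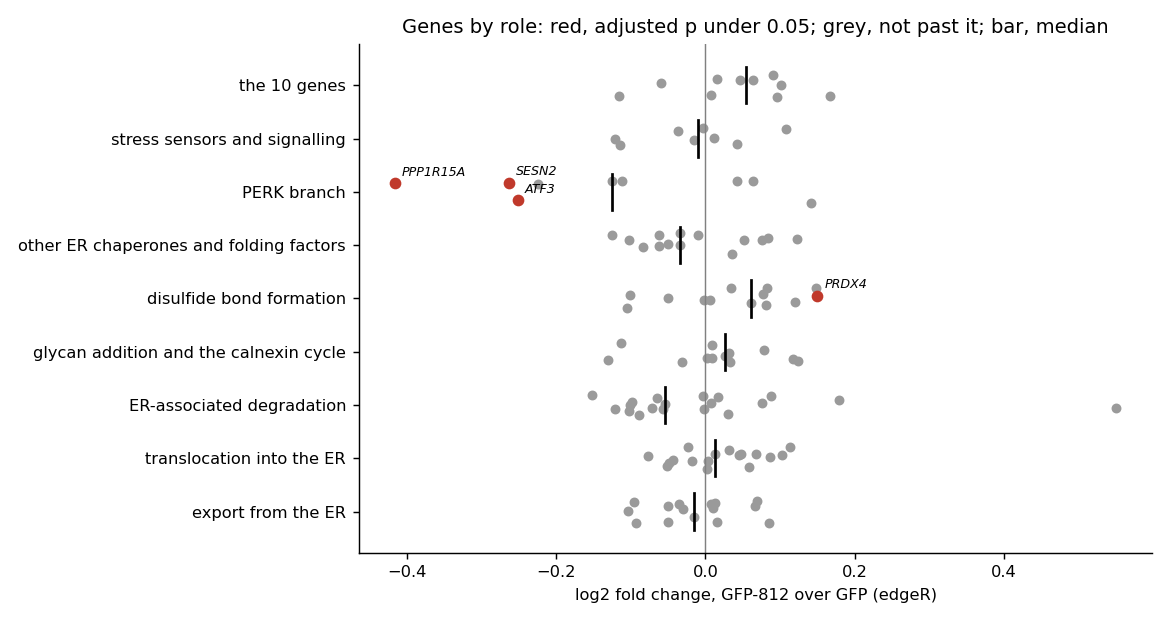
Log2 fold change, GFP-812 over GFP, of the 10 genes and of 108 further pathway genes by list (dots), with list medians (bars); red dots passed edgeR's test at an adjusted p under 0.05. The red dots are PPP1R15A, SESN2 and ATF3, lower, and PRDX4, higher, and the 10 genes lie between -0.12 and 0.17.

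Some reads may be shared with other genes. Processed copies of the 10 genes held at most 52 counts in a library (HSP90B2P), and the overlapping genes on the opposite strand with the most counts were C12orf73 beside HSP90B1 (173 to 281) and ATP6V1C2 beside PDIA6 (85 to 138). Whether counting used strand is not given in the sources used here, so reads of such partners cannot be told apart.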

How the data were processed

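Poly(A) RNA was sequenced, per the labels' protocols. The submitters' processing notes name HISAT2 2.2.1, HTSeq 0.6.1, cutadapt 1.9.1 and FastQC 0.10.1, with build hg38. The authors deposited raw counts per Ensembl gene and, per the file headers, FPKM. Dividing each count by exonic size and library total returned 100% of the FPKM within 0.0051. Each count is given by gene, so transcript forms are pooled.

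Counts were tested with edgeR 4.0.16 in R 4.3.3 (quasi-likelihood test, filterByExpr, TMM scaling, group alone, Benjamini-Hochberg over all genes tested, threshold 0.05); the procedure was tested on simulated data. SEs come from the F statistic. Alternatives used DESeq2 1.42.0 and limma 3.58.1. Fold changes are those of TMM-scaled counts.

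The 10 genes and the lists were chosen with earlier results of these data known. Named are NEK1, the 10 genes, the called genes of each list or else the gene with its smallest p, and the 5 genes closest to HSPA5. In RefSeq promoter windows, 95 of 108 list genes matched. Protein sequences were not used here, and a list of kidney lineage markers is not reported here.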

Additional observations from a re-analysis of the deposited data

How the results depend on the processing

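The count of 0 called among the 10 genes held under 17 of 18 alternatives (in DESeq2 for the 9 with an adjusted p) and became 3, all higher, without GFP replicate 3; leaving out each library gave 0 to 3. No alternative called any of them lower. The number of genes called (647) was 3 and 2 with limma on log2(FPKM + 1) and log2(FPKM + 0.1), and 209 (without GFP-812 replicate 2) to 1317 (without GFP replicate 3) without each library. Those limma fits called 0 list genes higher and 0 lower, and 0 of the PERK branch; without each library, 0 to 3 list genes rose, 2 to 5 fell, and 2 to 4 of the PERK branch fell. The GC and length correction called 0 list genes higher. The labels do not say whether the replicate numbers pair libraries. Correlations of same-numbered deviations were 0.0764, -0.00287 and 0.0208, and those of other pairs ran from -0.0539 to 0.0323, which cannot settle it. With the replicate number as a block 777 genes and 0 of the 10 were called. HERPUD1, never called, changed sign with total counts alone (-0.0052), limma (-0.0048 and -0.0051), and the GC and length correction (-0.0082); leaving out each library gave -0.0495 to 0.0394. DNAJB9 ran from -0.1121 to 0.0326 in that way, above 0 only without GFP replicate 1. The cause was not tested. The protein-coding, limma-voom and GC alternatives were chosen after seeing the data; the table gives no biotype, so types came from GENCODE release 29. With 165 to 234 counts per library, counting error limits SDF2L1 most.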

Other observations

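Outside the 10 genes, 36 symbols had an exact ER stress element of either form in a RefSeq promoter window, 30 of them matched 1 row of the table and 24 of those were tested. None passed edgeR's test in either direction (smallest adjusted p = 0.0602), where 3.84% of all genes tested did. An unadjusted p under 0.05 was reached by 5 of the 24, against 16.1% of all genes tested. They were NUCB1 (log2 fold change 0.17), PLS3 (0.09), SYNPO (0.38) and TRIM5 (0.27), above 0, and SHCBP1 (-0.17), below 0. The 24 genes had a median log2 fold change of 0.02, with 14 above 0, beside 51.8% of all genes tested. Some of the 24 have known roles in the ER, and values are mean and SD of 3 libraries each with the fitted log2 change. SERP1, which stabilises membrane proteins during stress, stood at 31.5 ± 1.02 against 32.5 ± 0.315 FPKM (-0.03). HYOU1, an HSP70-like partner of BiP, stood at 35 ± 0.902 against 36.2 ± 0.625 FPKM (-0.03), and CRELD2 at 7.76 ± 0.302 against 7.43 ± 0.315 FPKM (0.08). ERO1B, an oxidase that feeds the disulfide isomerases, stood at 5.34 ± 0.244 against 5.58 ± 0.162 FPKM (-0.05). ALG12, a mannosyltransferase of N-glycan assembly, stood at 1.7 ± 0.0503 against 1.82 ± 0.0666 FPKM (-0.08). Its groups did not overlap, as in 12.4% of genes tested in this direction. FICD, which modifies BiP, stood at 0.75 ± 0.0819 against 0.853 ± 0.116 FPKM (-0.17). The names with roles in the ER were chosen after their values were seen.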
